A study of Rattus norvegicus with 4 samples.

Results

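The antioxidant genes under the control of NRF2, and the genes that make and recycle glutathione, were followed in cultured rat Schwann cells (SCs), the glia of peripheral nerves, after ectopic expression of the Egr2-AS, an antisense RNA from the promoter of the myelination regulator Egr2. The 10 genes, Nfe2l2, Keap1, Nqo1, Hmox1, Gclc, Gclm, Txnrd1, Srxn1, Slc7a11 and Gsr, were chosen by name from the 17949 genes of the count table, and all 10 passed the filter on low counts. RNA-seq was performed on primary sciatic nerve SCs grown in serum with forskolin and heregulin-β1, so that both groups share these mitogens. Lentivirus was applied for 48 h, in 2 samples with a construct for the Egr2-AS (Lenti-AS) and in 2 control samples with the GFP backbone (Lenti-GFP). The Egr2-AS vector carries a red fluorescent reporter in place of the green one, so the reporter and the Egr2-AS cannot be told apart. The labels speak of biological replicates but do not say whether they came from separate cultures or animals, and the strain and age of the rats are not given in the sources used here. The p-values then measure the spread between these samples.

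NRF2, the product of Nfe2l2, is a transcription factor that cells keep scarce by binding it to KEAP1, an adaptor that hands it to a ubiquitin ligase for destruction. When oxidants or electrophiles modify KEAP1, NRF2 escapes, pairs with small MAF proteins and binds antioxidant response elements in its target genes. The targets make glutathione, the main small thiol of the cell, regenerate it and the thioredoxins with NADPH, and remove quinones and free heme. Much of this control acts on the NRF2 protein, which RNA-seq does not measure, and SCs meet oxidants and heme when a nerve is injured and its myelin and blood are cleared.

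The counts summed to 74024323 to 96185890 per library, and each of the 10 genes had between 1111 and 14393 counts in every library. Levels are given as CPM, the counts for every 1000000 of a library size scaled by edgeR's TMM method. They are not corrected for gene length, so they compare libraries and not genes. Of the SC markers, S100b was at 2027 to 2358 CPM and Sox10 at 61.2 to 163 CPM, although Gap43 was under 1 CPM in all 4 libraries. The 2 Lenti-AS libraries differed from each other in some genes, with Sox10 at 163 CPM in Lenti-AS 1 and 61.2 CPM in Lenti-AS 2 and Col1a1 at 2131 and 290 CPM. Globin genes were high in Lenti-AS 2 alone, where the red cell list summed to 3002 CPM against 4.15 to 7.37 CPM in the other 3 libraries. Fibroblast markers summed to 7171 and 7290 CPM in Lenti-GFP and 6277 and 4000 CPM in Lenti-AS, with Dcn, Lum and Thy1 under 1 CPM throughout. Postn alone of these was called, and lower, at 6166 and 6426 CPM in Lenti-GFP and 3796 and 3580 CPM in Lenti-AS (adjusted p = 0.0144 by edgeR's quasi-likelihood test). The other 4 fibroblast markers tested, Col1a1, Col1a2, Fbln1 and Pdgfra, had log2 fold changes of 0.63, 0.67, 0.21 and 0.14 and were not called. Col1a1 had 841 and 721 CPM in Lenti-GFP. Col1a2 had 155 and 133 CPM in Lenti-GFP and 340 and 120 CPM in Lenti-AS. Both collagen genes were above both Lenti-GFP libraries in Lenti-AS 1 and below both in Lenti-AS 2. Endothelial markers, mostly Tek, summed to 21.8, 21.6, 16.9 and 16.0 CPM in the same order of libraries. The part of these markers in the results below was not tested, and in bulk RNA fewer cells of a type and less RNA per cell cannot be told apart. The level of the Egr2-AS itself was not analysed here. Egr2 had 49.2 and 42.1 CPM in Lenti-GFP and 61.2 and 54.0 CPM in Lenti-AS, and was not called (adjusted p = 0.152 by edgeR's quasi-likelihood test). The strand setting of the counting is not given in the sources used here, so sense and antisense reads at Egr2 cannot be told apart.

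Of the 10 genes, Hmox1 rose in Lenti-AS and the other 9 did not pass the test. A call required an adjusted p (Benjamini-Hochberg, over the 12446 genes tested) under 0.05 together with a fold change of 1.3 or more in either direction. The 1 call among 10 genes is set beside a background of 1.98% of all genes tested, 1.31% called higher and 0.667% called lower. DESeq2 called the same 1 gene, against 6.25% of the genes to which it gave an adjusted p, 4.86% higher and 1.39% lower. Nfe2l2 had the next largest change, at 1.25-fold, and the other fitted changes lay between 0.877-fold for Gclm and 1.10-fold for Nqo1. For 8 of the 10 genes, all but Hmox1 and Nfe2l2, the 95% confidence interval of the change lay within 1.3-fold in both directions, which held for 44.4% of all genes tested. The genes did not move one way, since 6 had a fitted level above and 4 below Lenti-GFP. Their median log2 fold change was 0.06, against 0.01 over all genes tested. At an unadjusted p under 0.05 there were 3 of the 10 genes, Hmox1, Nfe2l2 and Gclm, where 21.8% of all genes tested reached it. Of these 3 genes, 2 were higher (12.5% of all genes) and 1 was lower (9.37% of all genes). The 2 groups did not overlap in 9 of the 10 genes, 5 higher and 4 lower in Lenti-AS, where 54.9% of all genes did not overlap, 27.7% higher and 27.2% lower. With 2 samples per group, an exact permutation test of a single gene cannot give a two-sided p under 0.333.

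**Figure D1:**
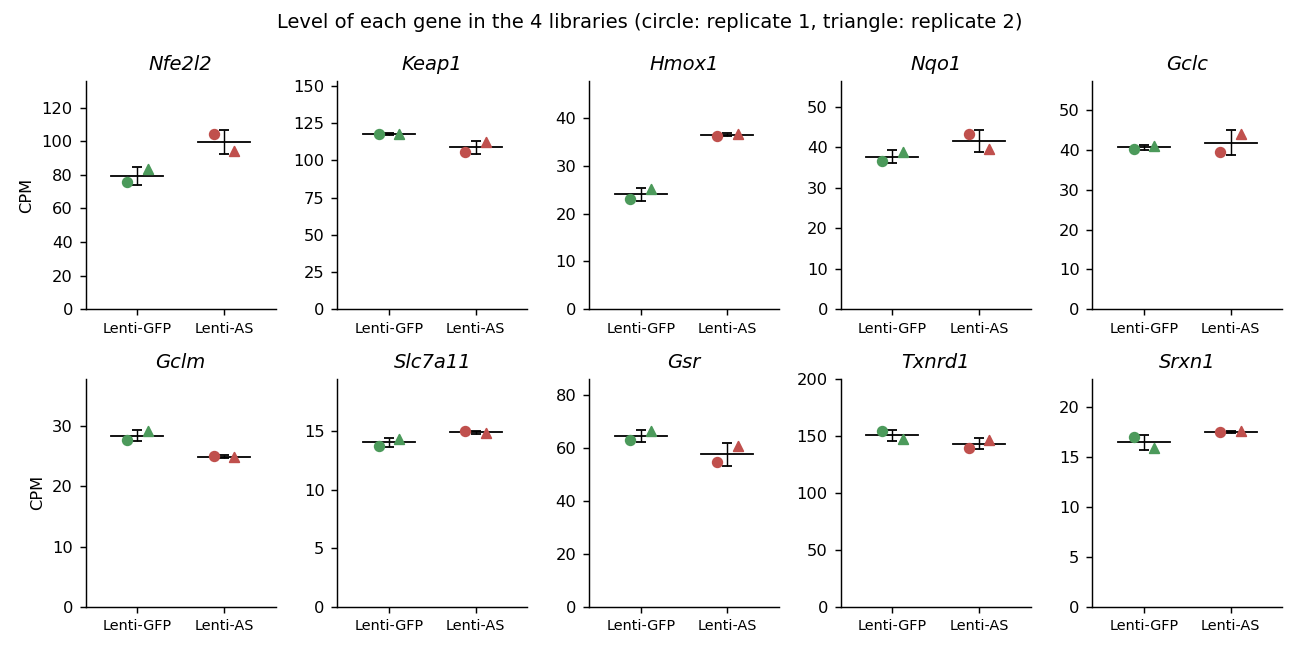
Each panel shows 1 gene, with CPM on a linear axis from 0 in the 2 Lenti-GFP libraries (green) and the 2 Lenti-AS libraries (red), and a bar with error for the mean ± SD (n = 2). Hmox1 stands at 23.0 and 25.0 CPM in Lenti-GFP and at 36.3 and 36.7 CPM in Lenti-AS, while the groups lie close together in most other panels and overlap in Gclc.

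Hmox1 encodes heme oxygenase 1, the inducible enzyme that opens the heme ring to biliverdin, carbon monoxide and free iron. It had 23.0 CPM in Lenti-GFP 1, 25.0 CPM in Lenti-GFP 2, 36.3 CPM in Lenti-AS 1 and 36.7 CPM in Lenti-AS 2, from 2150, 2372, 3181 and 2759 counts. Both Lenti-AS libraries were above both Lenti-GFP libraries, and the nearest libraries of the groups were 11.3 CPM apart. The Lenti-GFP pair was 1.99 CPM apart and the Lenti-AS pair 0.407 CPM. The group values were 24.0 ± 1.41 CPM and 36.5 ± 0.288 CPM (SD, n = 2 each), a fold change of 1.52 with a 95% confidence interval of 1.35 to 1.71. The log2 fold change was 0.60 (standard error 0.07) with an adjusted p = 0.0252 by edgeR's quasi-likelihood test, and DESeq2 gave 0.60 with an adjusted p = 1.02e-07. The size of the change did not rest on 1 library, since leaving out each in turn gave log2 fold changes from 0.55 to 0.66. The call was lost without Lenti-GFP 1 (adjusted p = 0.297) and without Lenti-GFP 2 (adjusted p = 0.276). In each of these fits 0 genes were called higher and 1 lower in the whole table.

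Heme, the substrate of this enzyme, is carried by globin, and macrophages are a known source of Hmox1 RNA. The globin genes were high in Lenti-AS 2 only, and Hmox1 was 36.3 CPM in Lenti-AS 1, where the red cell list summed to 7.37 CPM, and 36.7 CPM in Lenti-AS 2, where it summed to 3002 CPM. Without Lenti-AS 2 the log2 fold change of Hmox1 was 0.59. Without 7 globin rows in the fit it was 0.61 (adjusted p = 0.0263). The macrophage list summed to 3.72 to 3.88 CPM in Lenti-GFP and 4.40 to 4.75 CPM in Lenti-AS, and 8 of its 10 genes were under 1 CPM in all libraries, Ptprc, Aif1, Itgam and Adgre1 among them. Its 2 other genes were Csf1r, at 1.87 to 2.27 CPM, and Cd68, at 1.29 and 1.18 CPM in Lenti-GFP and 1.84 and 1.80 CPM in Lenti-AS (log2 fold change 0.56, adjusted p = 0.194 by edgeR's quasi-likelihood test). The part of these cells in the Hmox1 result was not tested.

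Nfe2l2 encodes NRF2 itself. It had 75.6 CPM in Lenti-GFP 1, 83.3 CPM in Lenti-GFP 2, 104 CPM in Lenti-AS 1 and 94.4 CPM in Lenti-AS 2. Both Lenti-AS libraries were above both Lenti-GFP libraries, and the gap of 11.1 CPM between the nearest libraries of the groups was close to the 10.1 CPM between the Lenti-AS libraries. The group values of 79.4 ± 5.43 and 99.4 ± 7.14 CPM (SD, n = 2 each) gave a fold change of 1.25, with a 95% confidence interval of 1.09 to 1.44. The log2 fold change was 0.32 (standard error 0.08), and the adjusted p = 0.109 by edgeR's quasi-likelihood test did not pass the threshold. DESeq2 gave an adjusted p = 0.00930 for a log2 fold change of 0.32, which is below the fold change asked for. Without Lenti-AS 2 the log2 fold change was 0.39, and without Lenti-AS 1 it was 0.25. It was 0.26 without Lenti-GFP 1 and 0.40 without Lenti-GFP 2, and Nfe2l2 was not called in either of these fits.

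Keap1, the inhibitor of NRF2, had 118 CPM in Lenti-GFP 1, 117 CPM in Lenti-GFP 2, 106 CPM in Lenti-AS 1 and 112 CPM in Lenti-AS 2. The Lenti-AS libraries were the lower ones, but the difference was small, at 0.926-fold with an interval of 0.838 to 1.02 (log2 fold change -0.11, adjusted p = 0.322 by edgeR's quasi-likelihood test). The ratio of Nfe2l2 to Keap1 counts within a library does not depend on how libraries are scaled. It was 0.641 and 0.709 in Lenti-GFP and 0.987 and 0.842 in Lenti-AS, so every Lenti-AS library had more Nfe2l2 reads for each Keap1 read than either Lenti-GFP library. The ratio of Hmox1 to Keap1 was 0.195 and 0.213 in Lenti-GFP and 0.343 and 0.328 in Lenti-AS. These ratios are given as a description, with no test, and a ratio of reads is not a ratio of molecules because the genes differ in length.

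**Figure D2:**
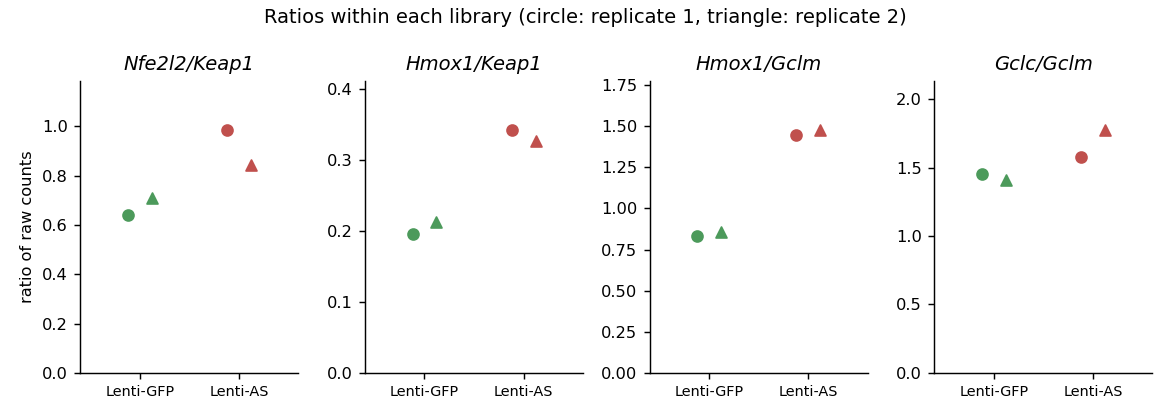
Points give the ratio of raw counts of 2 genes within each library, on linear axes from 0, for Lenti-GFP (green) and Lenti-AS (red). Hmox1 and Gclm are the genes of the 10 with the highest and the lowest fold change. Nfe2l2 to Keap1 lies at 0.641 and 0.709 in Lenti-GFP and at 0.987 and 0.842 in Lenti-AS, Hmox1 to Gclm goes from 0.830 and 0.859 to 1.45 and 1.48, and Gclc to Gclm lies between 1.41 and 1.78.

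Nqo1, a quinone reductase that is often read as a marker of NRF2 activity, had 36.6 CPM in Lenti-GFP 1, 38.9 CPM in Lenti-GFP 2, 43.4 CPM in Lenti-AS 1 and 39.6 CPM in Lenti-AS 2. Lenti-AS 2 lay 0.740 CPM above Lenti-GFP 2, less than the 3.79 CPM between the Lenti-AS libraries. The fold change was 1.10, with an interval of 0.964 to 1.26 (adjusted p = 0.352 by edgeR's quasi-likelihood test). Unlike Hmox1, this target had an interval that reached below 1.

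Gclc and Gclm encode the catalytic and the modifier subunit of glutamate-cysteine ligase, the enzyme of the rate-limiting step of glutathione synthesis. Gclc had 40.3 and 41.0 CPM in Lenti-GFP and 39.6 and 44.1 CPM in Lenti-AS. The groups overlapped, and the fold change was 1.03 with an interval of 0.902 to 1.18 (adjusted p = 0.783 by edgeR's quasi-likelihood test). Its fitted change turned to -0.04 on the log2 scale without Lenti-AS 2. Gclm had 27.7 and 29.1 CPM in Lenti-GFP and 25.1 and 24.8 CPM in Lenti-AS. Both Lenti-AS libraries were below both Lenti-GFP libraries, by 2.65 CPM between the nearest libraries, against 1.38 CPM between the Lenti-GFP libraries. The fold change of Gclm was 0.877, with an interval of 0.787 to 0.979, and it did not pass the threshold (log2 fold change -0.19, unadjusted p = 0.0263, adjusted p = 0.174 by edgeR's quasi-likelihood test). The Hmox1 to Gclm ratio was 0.830 and 0.859 in Lenti-GFP and 1.45 and 1.48 in Lenti-AS. This pair joins the highest and the lowest fold change of the 10 genes, so its gap follows from the choice of pair.

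Slc7a11 encodes the cystine and glutamate exchanger that brings in the cysteine for glutathione. It had 13.7 and 14.3 CPM in Lenti-GFP and 15.0 and 14.8 CPM in Lenti-AS, and the nearest libraries of the groups were 0.494 CPM apart (fold change 1.06, interval 0.924 to 1.22, adjusted p = 0.572 by edgeR's quasi-likelihood test). Gsr, the reductase that regenerates glutathione with NADPH, had 62.9 and 66.2 CPM in Lenti-GFP and 54.5 and 60.5 CPM in Lenti-AS. The Lenti-AS libraries were lower, with 2.39 CPM between the nearest libraries of the 2 groups and 5.99 CPM between the Lenti-AS libraries (fold change 0.891, interval 0.776 to 1.02, adjusted p = 0.291).

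The thioredoxin arm was measured through Txnrd1, the cytosolic thioredoxin reductase, and Srxn1, sulfiredoxin, which repairs overoxidized peroxiredoxins. Txnrd1 had 154 and 147 CPM in Lenti-GFP and 140 and 147 CPM in Lenti-AS, and Lenti-AS 2 was 0.710 CPM below the nearest Lenti-GFP library (fold change 0.950, interval 0.863 to 1.05, adjusted p = 0.485 by edgeR's quasi-likelihood test). Srxn1 had 17.0 and 15.9 CPM in Lenti-GFP and 17.4 and 17.5 CPM in Lenti-AS (fold change 1.06, interval 0.932 to 1.21, adjusted p = 0.538). For both genes the nearest libraries of the 2 groups were closer than the 2 Lenti-GFP libraries were to each other.

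**Figure D3:**
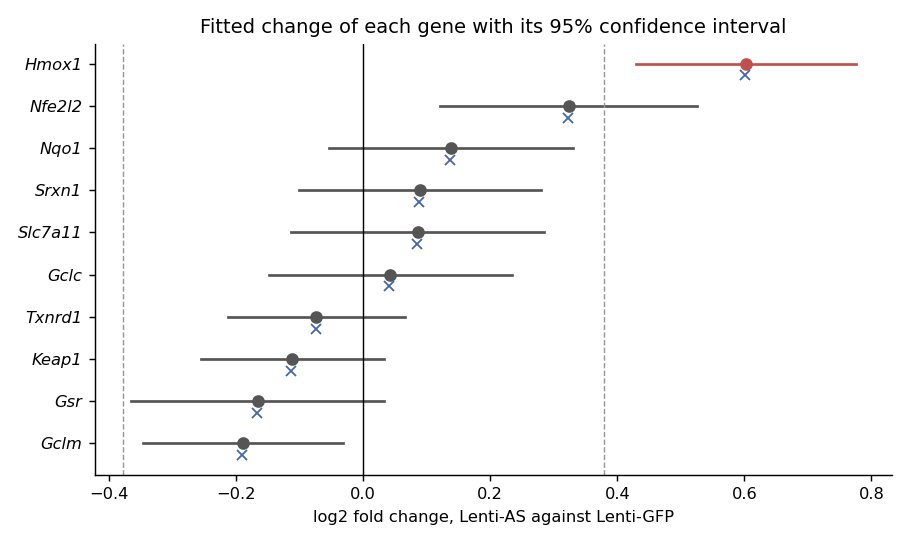
Points give the log2 fold change of Lenti-AS against Lenti-GFP by edgeR with the 95% confidence interval as a line, crosses give the DESeq2 value, and dashed lines mark a fold change of 1.3 in each direction. Hmox1 (red) is the 1 gene called, and the intervals of Nqo1, Srxn1, Slc7a11, Gclc, Txnrd1, Keap1 and Gsr include 0.

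NRF2 binds the antioxidant response element and the JUN and FOS factors bind the related AP-1 site, so the start regions of the genes were searched for both. RefSeq start windows of the GRCr8 assembly, from 250 bases before to 50 bases after an annotated start, were held for 8 of the 10 genes in 9 windows, 2 of them for Txnrd1. Hmox1 and Gsr had none in the table used. The counts were made on rn6, so no coordinate is shared with them. The core TGACNNNGC was searched on both strands and occurred in 3 of the 9 windows, and in 12.1% of all 33469 windows of this length. The AP-1 site TGANTCA, which is its own reverse complement, occurred in 1 of the 9 windows, that of Srxn1, and in 7.33% of all windows. No match of one overlapped a match of the other. The 4 matches that begin before the start are shown because they are the letters through which NRF2 or AP-1 factors could be looked for at these genes. The letters that match are in capitals, with 10 bases on each side, 5′ to 3′ on the strand of the gene:
Gclm, antioxidant response element core on the opposite strand, first base 172 bases before the start, chr2:213031953-213031981 (+): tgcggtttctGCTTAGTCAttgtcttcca
Txnrd1, antioxidant response element core on the opposite strand, first base 78 bases before the start, chr7:22755964-22755992 (-): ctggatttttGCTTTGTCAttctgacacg
Srxn1, AP-1 site, first base 62 bases before the start, chr3:161064740-161064766 (+): tctgagggccTGAGTCAccacgctgtg
Srxn1, AP-1 site, first base 5 bases before the start, chr3:161064797-161064823 (+): aaactcacccTGAGTCAgcgacccgac

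The remaining match to the antioxidant response element core lay 38 bases after the start of Nfe2l2. The 3 genes printed with a match, Gclm, Txnrd1 and Srxn1, had fold changes of 0.877, 0.950 and 1.06 and were not called. The windows of Keap1, Gclc, Slc7a11 and Nqo1 held neither set of letters. A match to these letters is not a bound site, and response elements of these genes can lie outside such windows.

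The wider pathway was read from 10 lists of genes, with 146 different genes tested. Some genes, Slc3a2 and Tfrc among them, stand in several lists, so the counts of these lists are not independent. Over the partners and regulators of NRF2, 1 of 13 genes tested was called, and it was lower, beside 0.667% of all genes called lower. This was Maff, a small MAF protein of the kind that pairs with NRF2 and, without it, can form repressive dimers. Maff had 64.4 and 60.6 CPM in Lenti-GFP and 45.0 and 44.0 CPM in Lenti-AS. Both Lenti-AS libraries were below both Lenti-GFP libraries (log2 fold change -0.49, standard error 0.07, adjusted p = 0.0389 by edgeR's quasi-likelihood test). The call was lost without Lenti-GFP 1 (adjusted p = 0.360) and without Lenti-GFP 2 (adjusted p = 0.345). Another small MAF gene, Mafk, overlapped between the groups (log2 fold change -0.22, adjusted p = 0.296). Bach1, the repressor that gives way to NRF2 at Hmox1, had a log2 fold change of -0.13 (adjusted p = 0.316). Their relatives in the list had values of the other sign. Mafg was at 0.19 (adjusted p = 0.598) and Bach2 at 0.55 (adjusted p = 0.324 by edgeR's quasi-likelihood test). Mafg had 19.9 and 15.1 CPM in Lenti-GFP and 16.8 and 23.1 CPM in Lenti-AS. Bach2 had 2.66 and 2.25 CPM in Lenti-GFP and 4.54 and 2.61 CPM in Lenti-AS. Both genes overlapped between the groups. Neither was called. Mafk, Bach1, Mafg and Bach2 were chosen after their values were seen. The highest value of the list was that of Gsk3b, a kinase that can mark NRF2 for destruction, at 0.57 (adjusted p = 0.0931 by edgeR's quasi-likelihood test). DESeq2 (adjusted p = 0.00575) and edgeR's likelihood ratio test (adjusted p = 0.0270) called Gsk3b higher. These were the only 2 of 11 alternatives with all samples that called it. Gsk3b had 12.3 and 12.6 CPM in Lenti-GFP and 20.8 and 16.1 CPM in Lenti-AS. Its log2 fold change was 0.37 without Lenti-AS 1 and 0.74 without Lenti-AS 2. The median of the list was 0.01, as it was over all genes.

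Among the genes of heme and iron handling, 0 of 13 tested were called by edgeR's quasi-likelihood test. At an unadjusted p under 0.05 there were 3 higher and 0 lower, beside 12.5% and 9.37% of all genes tested. DESeq2 called 1 higher, beside 4.86% of the genes to which it gave an adjusted p. That gene was Ftl1, the ferritin light chain, which stores iron, with 29.6 and 26.3 CPM in Lenti-GFP and 47.6 and 39.0 CPM in Lenti-AS. The groups did not overlap, and the log2 fold change was 0.63 (standard error 0.12, adjusted p = 0.0580 by edgeR's quasi-likelihood test, 5.24e-05 by DESeq2). Without Lenti-AS 1 Ftl1 had a log2 fold change of 0.48, and without Lenti-AS 2 one of 0.77. It was not called without Lenti-GFP 1 (adjusted p = 0.316) or without Lenti-GFP 2 (adjusted p = 0.509). Ferritin genes have many processed copies in mammals, so reads can be shared between them. Fth1, the heavy chain, had 487 and 493 CPM in Lenti-GFP and 553 and 554 CPM in Lenti-AS (log2 fold change 0.18, adjusted p = 0.125). Blvrb and Blvra, reductases that act on biliverdin, had log2 fold changes of 0.13 (adjusted p = 0.316) and -0.13 (adjusted p = 0.326). The remaining gene of the list at an unadjusted p under 0.05, besides Ftl1 and Fth1, was Tfrc. It had a log2 fold change of 0.26 (adjusted p = 0.109 by edgeR's quasi-likelihood test). Fth1, Tfrc and Blvrb were chosen after their values were seen. The median of the list was 0.01.

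Glutathione synthesis and recycling outside the 10 genes held 0 calls among 11 tested by edgeR's quasi-likelihood test and 0 by DESeq2. At an unadjusted p under 0.05 there was 1 gene, beside 21.8% of all genes tested. This gene was Slc3a2, the heavy chain that carries the Slc7a11 exchanger, with 250 and 259 CPM in Lenti-GFP and 291 and 297 CPM in Lenti-AS (log2 fold change 0.21, adjusted p = 0.106), and was chosen after its values were seen. The list ran in level of change from Chac1, which breaks glutathione down, at 0.54 (adjusted p = 0.271), to Chac2 at -0.12 among genes with at least 1 CPM. Enzymes that use glutathione held 0 calls among 29 tested. At an unadjusted p under 0.05 they had 4 higher and 5 lower, beside 12.5% and 9.37% of all genes tested. DESeq2 called 1 higher, beside 4.86% of the genes to which it gave an adjusted p. That was Gstm7, a glutathione transferase, at 0.49 (adjusted p = 0.113 by edgeR and 0.0415 by DESeq2). Gstm genes are related, so reads can be shared between them. The lowest was Mgst2 at -0.35 (adjusted p = 0.258). The medians of these lists were -0.04 and -0.03.

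The thioredoxin and peroxiredoxin list had 12 of 16 genes with a fitted level below Lenti-GFP, against 48.7% of all genes tested, and a median log2 fold change of -0.09. None of the 16 was called by edgeR's quasi-likelihood test or by DESeq2, and 1 was higher and 6 were lower at an unadjusted p under 0.05, beside 12.5% and 9.37% of all genes tested. Prdx1, a peroxiredoxin and known NRF2 target, had 153 and 159 CPM in Lenti-GFP and 137 and 123 CPM in Lenti-AS (log2 fold change -0.26, adjusted p = 0.117), and was chosen after its values were seen. The extremes of the list were Txnrd3 at 0.34 (adjusted p = 0.145) and Msrb2 at -0.64 (adjusted p = 0.165). Among the 5 superoxide and peroxide enzymes, 0 were called by either tool. At an unadjusted p under 0.05 there was 1 in each direction, beside 12.5% higher and 9.37% lower over all genes tested. Sod3, the secreted superoxide dismutase, had 166 and 157 CPM in Lenti-GFP and 237 and 180 CPM in Lenti-AS (log2 fold change 0.37, adjusted p = 0.175). Without Lenti-AS 2 its log2 fold change was 0.55, and without Lenti-AS 1 it was 0.16. Sod1, the cytosolic enzyme, had a log2 fold change of -0.26 (adjusted p = 0.0710). The median of these 5 genes was -0.06.

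NADPH is the electron source of both reductases. Of the 12 genes of its supply, 0 were called by edgeR's quasi-likelihood test or DESeq2. Only 1 had an unadjusted p under 0.05, beside 21.8% of all genes tested. That was Idh1, cytosolic isocitrate dehydrogenase, with 244 and 254 CPM in Lenti-GFP and 205 and 193 CPM in Lenti-AS (log2 fold change -0.32, adjusted p = 0.0563). The highest was Me1 at 0.29 (adjusted p = 0.519), and the median of the list was 0.00027.

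Of 21 other enzymes known as NRF2 targets, 1 was called, and it was higher, beside 1.31% of all genes called higher. Ephx1, the microsomal epoxide hydrolase, had 12.9 and 14.7 CPM in Lenti-GFP and 22.8 and 23.2 CPM in Lenti-AS. The groups did not overlap (log2 fold change 0.74, standard error 0.09, adjusted p = 0.0276 by edgeR's quasi-likelihood test). Ephx1 lost the call without Lenti-GFP 1 (adjusted p = 0.299) and without Lenti-GFP 2 (adjusted p = 0.276). Ugdh, which makes the sugar donor for glucuronide conjugation, lay on the other side, with 498 and 487 CPM in Lenti-GFP and 379 and 386 CPM in Lenti-AS. Its adjusted p was 0.0358 but its log2 fold change of -0.37 was short of the fold change asked for. The median of the list was -0.02, and 10 of its genes were above and 11 below Lenti-GFP.

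Slc7a11, Slc3a2 and Chac1 also respond to ATF4, the factor of the amino acid response, and the genes of that response were read alongside. Of 18 genes tested, 3 were called higher and 0 lower by edgeR's quasi-likelihood test, beside 1.31% and 0.667% of all genes. DESeq2 called 5 higher and 0 lower, beside 4.86% and 1.39% of the genes to which it gave an adjusted p. At an unadjusted p under 0.05 there were 9 higher and 0 lower, beside 12.5% and 9.37% of all genes, and the median log2 fold change was 0.24. The genes called were Sesn2, a sestrin, with 20.9 and 19.8 CPM in Lenti-GFP and 33.5 and 32.4 CPM in Lenti-AS (log2 fold change 0.69, adjusted p = 0.0191 by edgeR's quasi-likelihood test), Asns, asparagine synthetase (0.55, adjusted p = 0.0394), and Slc7a5, an amino acid transporter (0.50, adjusted p = 0.0465). Without Lenti-GFP 1 or without Lenti-GFP 2 none of the 3 was called, with adjusted p from 0.200 to 0.504. Trib3 had the highest value, 0.77 (adjusted p = 0.166), and Nupr1 the lowest among genes with at least 1 CPM, -0.05. Atf4 itself, chosen after its values were seen, overlapped between the groups (0.03, adjusted p = 0.797). Slc7a11, at 0.09, lay below the median of this list.

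The ferroptosis and selenium genes held 0 calls among 14 tested by edgeR's quasi-likelihood test. DESeq2 called 1 higher, Selenop, beside 4.86% of the genes to which it gave an adjusted p. Selenop, a secreted selenium carrier, had a log2 fold change of 0.39 (adjusted p = 0.106 by edgeR and 0.0315 by DESeq2), and Selenos, a selenoprotein of the endoplasmic reticulum, had one of -0.30 (adjusted p = 0.0576). There were 3 higher and 2 lower at an unadjusted p under 0.05, beside 12.5% and 9.37% of all genes tested. The 3 higher were Selenop, Tfrc and Slc3a2, and Tfrc and Slc3a2 were already counted in lists above. The median was 0.02.

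**Figure D4:**
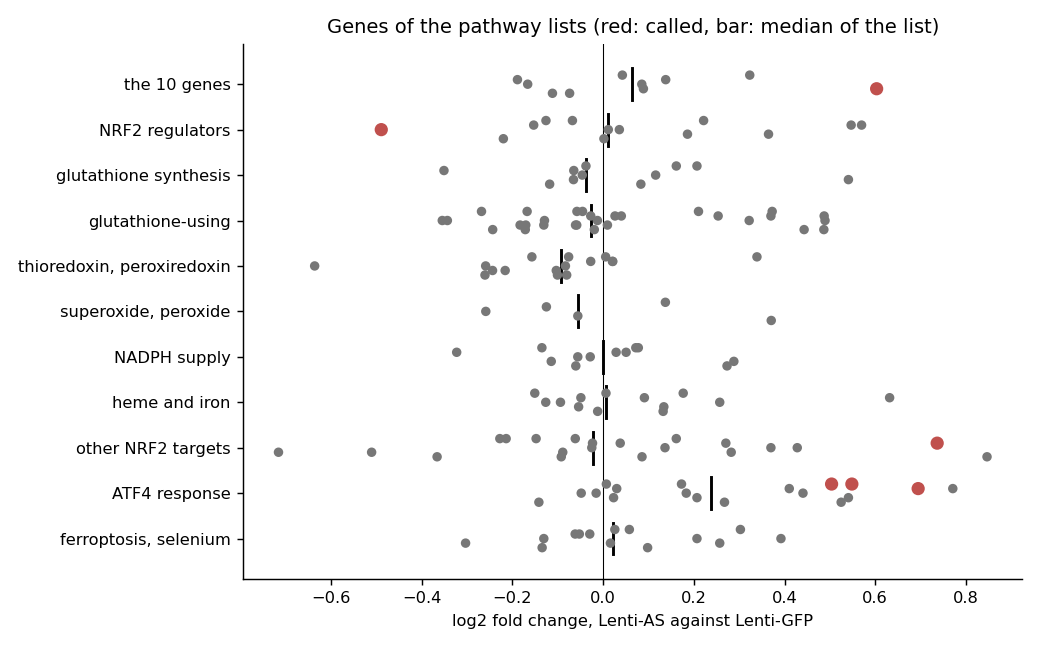
Each point is 1 gene of a list on the axis of log2 fold change of Lenti-AS against Lenti-GFP, red points are called genes and the bar is the median of the list. The medians lie between -0.09 for the thioredoxin and peroxiredoxin genes and 0.24 for the ATF4 genes, and the called genes are Hmox1, Maff, Ephx1, Sesn2, Asns and Slc7a5.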

How the data were processed

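RNA-seq of 4 libraries (2 Lenti-GFP, 2 Lenti-AS) was analysed. Reads (50 bp, paired-end) were mapped to rn6, and the authors deposited whole-number read counts per gene from featureCounts over RefSeq exons, without normalization. Their paper names hisat2 and the submitters' processing notes name GSNAP. Versions, strand and multi-mapping settings are not given in the sources used here. A repeated header row (1) was dropped. Replicates differed by more than sampling noise (chi-square per gene 30.8 and 99.1). The 12446 genes that reached 10 counts in 2 or more libraries were fitted with edgeR 4.0.16 (R 4.3.3; TMM, glmQLFit, glmQLFTest), without a replicate term, and p-values were adjusted over all of them. Standard errors came from the F statistic. The fit was tested on simulated data. DESeq2 1.42.0, which gave no adjusted p for 2413 genes, limma 3.58.1 (voom), other factors and filters, a replicate block and leaving out each sample were alternatives. Leaving out globin rows and the newer fit were chosen after seeing the data.

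The 10 genes and the lists were chosen with earlier results of these data known. From each list, called genes and the highest and lowest log2 fold change with at least 1 CPM were named, and other names are marked in the text.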

Additional observations from a re-analysis of the deposited data

How the results depend on the processing

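Of the 10 genes, 1 was called higher and 0 lower under DESeq2, the likelihood ratio test, limma-voom, other scaling factors, both other filters, no fold cut-off and an adjusted p under 0.1, as well as without the globin rows and with the newer fit. With a replicate block, 0 were called higher, and Hmox1 stood at 0.60 on the log2 scale with an adjusted p of 0.0797. The block also ended the calls of Ephx1 (0.0741), Maff (0.0905), Sesn2 (0.0680), Asns (0.0996) and Slc7a5 (0.0915, all adjusted p). Leaving out one sample gave 0 to 2 called higher. The second was Nfe2l2, in the fit without Lenti-AS 2. Over all genes, against 163 higher and 83 lower, DESeq2 gave 488 and 139, the likelihood ratio test 374 and 147, an adjusted p under 0.1 gave 344 and 133, and the replicate block 3 and 14. Leaving out one sample gave 0 to 1260 higher and 1 to 278 lower. The deviations of samples with the same number from their group means were not correlated over genes (correlation -0.0073). With 2 samples per group this cannot tell whether such samples shared a culture, an animal or a batch. Where a group kept 1 sample, that sample was assumed to vary like the other group. The most genes were called higher without Lenti-AS 2, where the spread came from the Lenti-GFP libraries. The fits that left out one sample were not followed for Mafg, Bach2, Tfrc or the cell type markers. Among the other genes named, 4 log2 fold changes changed sign when one sample was left out. The ranges were -0.0374 to 0.118 for Gclc and -0.203 to 0.0874 for Nupr1 (0.0649 without Lenti-GFP 2). They were -0.292 to 0.0356 for Chac2 and -0.0120 to 0.0773 for Atf4 (-0.00335 without Lenti-AS 2). The cause was not tested. Library totals moved the median of all genes to 0.04 and that of the 10 genes to 0.10. The 2 samples per group and the spread between the Lenti-AS libraries limit these calls, and their separate parts were not tested.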
